A study of Mus musculus with 24 samples.

Results

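The distal part of mouse chromosome 2 was examined for windows in which 5-hydroxymethylcytosine (5hmC) differed between a line with wild-type Tet3 and a line with phosphor-mutant Tet3. Such windows are called differentially 5-hydroxymethylated regions (DhMRs). Each is 198 bp long in the lists. The windows were chosen by position, with a start at or after the middle of the chromosome at 91.06 Mb, and were split by the direction of the difference. An interval of 140 kb between Nusap1 and Ganc, which held 115 windows higher in Wt25 and 0 higher in AA10, was left out. This left 922 of the 20726 listed windows, of which 717 were higher in Wt25 and 205 were higher in AA10. With the interval, 832 distal windows were higher in Wt25. Direction and position are thus part of the choice, and counts of windows by direction are given as a description without a test. At the boundary, the nearest distal windows lay 1.49 and 1.69 kb after the midpoint, both higher in Wt25. The nearest proximal windows lay 211 kb before it (higher in AA10) and 216 kb before it (higher in Wt25).

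Both lines were made from mouse embryonic stem cells (mESCs) of mixed C57BL/6J-129V background that lack Tet1, Tet2 and Tet3 (TKO), grown in 2i media with LIF. Wt25 carries lentiviral wild-type human Tet3, and AA10 carries lentiviral human Tet3 with both Cdk5 target serines changed to alanine. Each line is a single clone selected with puromycin, and the clones express Tet3 protein at a similar level. With 1 clone per line, the Tet3 form and the clone cannot be told apart. 5hmC-bearing DNA was pulled down with an anti-5hmC antibody and sequenced from 3 libraries per line (5hmC-DIP), and the lists pool these libraries. They give positions only, so from the lists the size and the error of the difference at a single window are unknown.

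Tet enzymes oxidise 5-methylcytosine to 5hmC, a step in the removal of DNA methylation that is also found as a lasting mark in gene bodies and enhancers. In vertebrates methylation lies mostly at CpG dinucleotides, so the number of CpGs in a window limits how much 5hmC it can hold. In TKO cells no mouse Tet protein remains, and the introduced Tet3 is the source of the mark. Distal chromosome 2 holds the gene of the kidney regulator Wt1, that of the eye and brain regulator Pax6, the methyltransferase gene Dnmt3b and the imprinted clusters of Nnat, Mcts2 and Gnas.

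The sequences below come from the 5 distal genes that held the most windows higher in Wt25 and the 2 that held the most windows higher in AA10, and show what kind of DNA the windows cover. In each gene the window with most CpGs outside UTRs and outside repeat-rich sequence is given. All are intronic, and each is from the plus strand of GRCm38, 5′ to 3′, with every CpG in capitals.
Ganc (higher in Wt25), chr2:120421203-120421400: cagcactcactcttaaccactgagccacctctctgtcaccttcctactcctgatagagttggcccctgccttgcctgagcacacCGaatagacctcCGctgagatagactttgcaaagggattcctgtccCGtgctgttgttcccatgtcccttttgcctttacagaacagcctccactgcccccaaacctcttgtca
Wt1os (higher in Wt25), chr2:105083603-105083800: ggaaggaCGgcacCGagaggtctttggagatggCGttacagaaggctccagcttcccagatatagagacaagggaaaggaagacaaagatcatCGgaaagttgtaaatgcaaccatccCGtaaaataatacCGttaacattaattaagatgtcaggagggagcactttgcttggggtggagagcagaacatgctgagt
Chmp4b (higher in Wt25), chr2:154664803-154665000: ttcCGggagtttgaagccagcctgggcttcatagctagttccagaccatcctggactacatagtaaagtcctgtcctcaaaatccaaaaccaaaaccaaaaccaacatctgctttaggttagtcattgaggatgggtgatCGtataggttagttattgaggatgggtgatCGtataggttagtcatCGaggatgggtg
Tshz2 (higher in Wt25), chr2:169736403-169736600: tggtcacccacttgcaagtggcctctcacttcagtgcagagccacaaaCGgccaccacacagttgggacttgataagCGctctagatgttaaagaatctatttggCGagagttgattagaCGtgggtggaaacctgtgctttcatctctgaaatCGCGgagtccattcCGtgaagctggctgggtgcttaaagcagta
Nusap1 (higher in Wt25), chr2:119630003-119630200: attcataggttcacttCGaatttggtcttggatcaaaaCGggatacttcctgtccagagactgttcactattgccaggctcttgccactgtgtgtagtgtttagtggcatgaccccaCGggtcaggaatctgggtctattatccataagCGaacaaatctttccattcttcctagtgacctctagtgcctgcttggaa
Uqcc1 (higher in AA10), chr2:155889003-155889200: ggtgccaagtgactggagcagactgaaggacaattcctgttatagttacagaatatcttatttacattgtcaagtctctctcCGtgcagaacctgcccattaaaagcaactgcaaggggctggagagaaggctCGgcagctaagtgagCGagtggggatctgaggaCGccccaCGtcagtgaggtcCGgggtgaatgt
Zmynd8 (higher in AA10), chr2:165794803-165795000: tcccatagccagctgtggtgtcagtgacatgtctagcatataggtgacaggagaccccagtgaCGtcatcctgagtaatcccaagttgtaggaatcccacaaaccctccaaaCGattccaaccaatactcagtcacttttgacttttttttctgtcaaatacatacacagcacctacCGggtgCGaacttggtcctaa

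These windows held between 3 CpGs, in Ganc, and 7 CpGs, in Tshz2. The Uqcc1 and Zmynd8 windows, with 6 and 4 CpGs, fell within that range. The promoter window with the most CpGs in each direction is given below. They lie 247 bp from the start of Mcts2, an imprinted retrogene within an intron of H13, and 506 bp from the start of Dnajc17, which encodes a J-domain protein.
Mcts2 (higher in Wt25), chr2:152686803-152687000: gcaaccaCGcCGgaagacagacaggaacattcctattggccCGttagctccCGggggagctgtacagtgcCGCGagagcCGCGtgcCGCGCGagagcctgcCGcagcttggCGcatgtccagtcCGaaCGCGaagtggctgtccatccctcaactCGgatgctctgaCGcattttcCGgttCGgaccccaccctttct
Dnajc17 (higher in AA10), chr2:119209203-119209400: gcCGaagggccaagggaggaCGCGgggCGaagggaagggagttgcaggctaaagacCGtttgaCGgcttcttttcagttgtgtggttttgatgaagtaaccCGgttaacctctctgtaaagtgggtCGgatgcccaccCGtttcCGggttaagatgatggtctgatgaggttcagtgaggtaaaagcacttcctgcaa

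The Mcts2 window held 20 CpGs and the Dnajc17 window held 10. They were the most CpG-rich promoter windows of distal chromosome 2 in their directions.

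More Wt25 windows were found in distal than in proximal chromosome 2, whereas AA10 windows were found at a similar density in both. The distal part held 7.93 windows higher in Wt25 and 2.27 higher in AA10 per Mb of known sequence (90.4 Mb). The proximal part held 308 windows higher in Wt25 and 198 higher in AA10, or 3.51 and 2.25 per Mb over 87.8 Mb. The density was thus 2.26 times the proximal one for Wt25 and 1.01 times for AA10. Of the distal windows, 77.8% were higher in Wt25 (95% Wilson interval 75.0 to 80.3%), against 60.9% (56.6 to 65.0%) of the proximal windows and 58.4% of all listed windows. These intervals cover the number of windows only, not the spread between libraries, and neighbouring windows are not independent.

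The difference between the parts shrank when neighbouring windows were counted once. With windows of one direction within 1 kb joined, 517 distal regions were higher in Wt25 and 183 in AA10, a Wt25 share of 73.9%, against 277 and 182 proximal regions (60.3%). With windows within 10 kb joined, the distal share was 68.2% and the proximal share 57.8%, and the Wt25 density was 1.35 times the proximal one. Every other autosome was divided at its middle in the same way, which gave 37 other parts with proximal chromosome 2 included. Of these, 6 held more Wt25 windows per Mb than distal chromosome 2 (7.87 per Mb of full length, against a median of 3.70). A higher Wt25 share (median 61.4%) was found in 2, proximal chromosome 14 (79.8%) and distal chromosome 19 (86.7%). These ranks rest on unequal treatment, as the left-out interval was removed from chromosome 2 only. With it kept, the distal chromosome 2 share was 80.2%, and its Wt25 density was higher too. For AA10 windows, distal chromosome 2 held 2.25 per Mb against a median of 2.44.

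The Wt25 excess was concentrated in a few 1 Mb segments. Of the 92 distal segments, 78 held windows, and in 54 of these Wt25 windows outnumbered AA10 windows. In 20 segments AA10 windows outnumbered Wt25 windows, and in 4 the numbers were equal. The median segment held 2 Wt25 windows and 1 AA10 window, whereas the 3 richest segments held 249 Wt25 windows (34.7%). The 6 segments with the largest excess held 332 Wt25 and 8 AA10 windows and carried 324 of the total excess of 512 windows (63.3%). In the proximal part, where the net excess was only 110 windows, the corresponding 6 segments carried 100 (90.9%). As shares of the Wt25 windows themselves the order was the other way. These 6 segments held 46.3% of the distal and 38.0% of the proximal Wt25 windows. The 3 richest held 34.7% and 24.7%, and the single richest held 91 and 27 windows. A concentration in few segments was thus found in both parts, and which part was more concentrated depends on the measure. Without the 6 distal segments, 385 distal Wt25 and 197 distal AA10 windows remained. This was a Wt25 share of 66.2% (62.2 to 69.9%) and a density of 4.56 and 2.34 per Mb. Leaving out the corresponding 6 proximal segments brought the proximal share to 51.3%. The segments were picked by their excess, so a lower share without them follows from the choice.

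**Figure D1:**
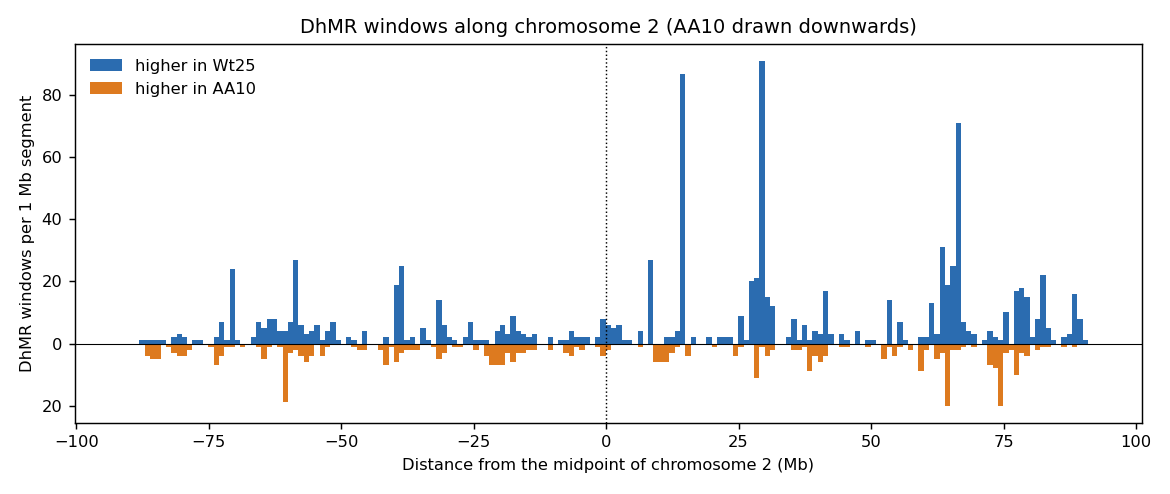
DhMR windows in each 1 Mb segment of chromosome 2, plotted against distance from the chromosome midpoint in Mb, with windows higher in Wt25 drawn upwards and windows higher in AA10 drawn downwards. On the distal side (right of the dotted line) 3 segments reach 91, 87 and 71 Wt25 windows, while the highest AA10 number is 20.

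The richest segment, which starts at 120 Mb, held 91 Wt25 windows and 1 AA10 window. Of the Wt25 windows 87 lay inside a gene, namely Ganc, Capn3, Tmem87a, Vps39, Snap23, Pla2g4d, Pla2g4f, Stard9, Haus2, Cdan1, Ehd4 or Sptbn5, and the AA10 window lay in Sptbn5. The segment at 105 Mb held 87 Wt25 windows and 0 AA10 windows, of which 45 lay inside a gene, mostly in Wt1, its antisense transcript Wt1os or Them7, with others in Gm11060, Ccdc73, Eif3m and Elp4, and 42 lay outside genes. The segment at 157 Mb held 71 Wt25 windows, of which 47 lay inside a gene, in a row from Soga1, Samhd1, Rbl1 and Mroh8 through Rpn2, Manbal, Src and Gm14279 to Nnat, Blcap and Ctnnbl1. The other 24 and both AA10 windows of this segment lay outside genes. These 3 segments differ in their gene content, which includes enzymes, a developmental regulator with its antisense RNA, cell-cycle genes and an imprinted pair.

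The other 3 segments of large excess started at 154, 99 and 156 Mb. The segment at 154 Mb held 31 Wt25 and 3 AA10 windows. Of the Wt25 windows 20 lay in Chmp4b, with others in Raly, Asip and Cdk5rap1, and 2 of the AA10 windows lay in Cbfa2t2. The segment at 156 Mb held 25 Wt25 and 2 AA10 windows. Of the Wt25 windows 14 lay in Phf20, with others in Dlgap4, Nfs1 and Ndrg3, and the AA10 windows lay in Fer1l4. The segment at 99 Mb was of another kind. Its 27 Wt25 windows formed a single group of 21.6 kb in intergenic DNA, 427 kb from the nearest protein-coding gene, Gm10800, and 25 of the 27 were made mostly of bases marked as repeats.

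Segments with an AA10 excess were fewer and smaller. The segment at 165 Mb held 20 AA10 windows and 1 Wt25 window. Of the AA10 windows 8 lay in Zmynd8, 2 in Cdh22 and 1 in Slc35c2, and 9 lay outside genes. The segments at 129 and 150 Mb held 9 AA10 windows each, with 1 and 2 Wt25 windows. Genes with AA10 windows there included Pdyn and Slc20a1 at 129 Mb, and Acss1, Abhd12 and Ninl at 150 Mb. Over the full 10 Mb stretches of the distal part, the Wt25 share ranged from 50.9% (56 Wt25 and 54 AA10 windows) in the stretch that starts at 160 Mb to 88.1% (74 and 10) in the next one, which starts at 170 Mb. Beyond it, all 9 windows at the end of the chromosome were higher in Wt25. The stretch from 150 Mb held the most windows, 177 and 44.

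Distal Wt25 windows lay close to each other, although such distances also depend on how many windows a set holds. The median distance to the nearest window of the same direction was 2.6 kb for distal Wt25 and 12.6 kb for distal AA10 windows. It was 23.7 kb for proximal Wt25 and 28 kb for proximal AA10 windows. The median distance from a distal Wt25 window to the nearest AA10 window was 333.4 kb, and 1.53% of the distal Wt25 windows had an AA10 window within 10 kb. Of the fewer distal AA10 windows, 5.85% had a Wt25 window within 10 kb. With gaps of up to 10 kb, 301 distal Wt25 windows (42.0%) fell into 21 groups of at least 5 windows. Proximal Wt25 windows gave 6 such groups with 37 of 308 windows, and distal AA10 windows gave 1 group of 5, at Procr.

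Dense runs, with at least 20 windows of one direction and gaps of at most 10 kb, were found 5 times, and they held 168 of the 717 Wt25 windows (23.4%) within 232 kb. The largest run, at chr2:120410403-120488600, held 53 windows across Ganc and Capn3. The second, at chr2:105053403-105106600, held 48 windows, of which 20 were in introns and 26 were intergenic, across Wt1os and the sequence beyond its 3′ end. The others were the intergenic run at chr2:99094603-99116200 with 27 windows, a run of 20 windows at chr2:105204803-105246600 over the start of Them7, and a run of 20 windows at chr2:154656203-154693400 over Chmp4b. No dense run of AA10 windows, and none of proximal Wt25 windows, was found. A group of 17 windows, 16 of them inside Nusap1 and 1 beyond its end, ended 45.4 kb before the interval that was left out. The Ganc run began 570 kb after it.

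The share of genes with a Wt25 window was similar in the 2 parts of the chromosome, but single distal genes held more windows. A Wt25 window lay inside 123 of 963 distal protein-coding genes (12.8%) and inside 112 of 875 proximal ones (12.8%). An AA10 window lay inside 69 distal genes (7.17%) and 73 proximal genes (8.34%). At least 5 Wt25 windows were found in 20 distal and 3 proximal protein-coding genes, and the highest number in a gene was 45 distally and 17 proximally. Of all Wt25 windows of the distal part, 461 (64.3%, 60.7 to 67.7%) lay inside an annotated gene of any type, as did 128 AA10 windows (62.4%, 55.6 to 68.8%). The 12 genes with most Wt25 windows together held 200 distinct windows (27.9%), with no AA10 window among them. The 6 genes with most AA10 windows held 33 distinct AA10 windows (16.1%) and 1 Wt25 window.

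The distal gene with most windows was Ganc. This gene, which encodes a neutral alpha-glucosidase, held 45 Wt25 windows in 57.8 kb, all within the dense run, with 41 in introns, 3 in coding exons and 1 at the transcription termination site. This was 77.8 windows per 100 kb, and 10 of the 45 were mostly repeat. Its neighbour Tmem87a, a Golgi membrane protein gene, held 13 windows, and Capn3, the muscle calpain protease gene whose start overlaps the end of Ganc, held 10. Together the 3 genes held 66 distinct Wt25 windows (9.21% of the distal Wt25 windows). Chmp4b, a subunit of the ESCRT-III membrane fission machinery, held 20 Wt25 windows in 43.1 kb, of which 18 were intronic. In the metabolic list Wt25 windows lay in 3 of 25 genes (12%, against 12.8% of all distal protein-coding genes), namely Ganc, Capn3 and Hdc. AA10 windows lay in 5 genes (20%, against 7.17%) with 1 window each, Acss1, Pltp, Ptgis, Slc23a2 and Acot8. Capn3 is in that list although it is a protease.

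Of 44 distal genes in the list of developmental transcription factors, 9 held Wt25 windows only, 3 held AA10 windows only, 2 held both and 30 held none. A Wt25 window thus lay in 25% of them and an AA10 window in 11.4%, against 12.8% and 7.17% of all distal protein-coding genes. Tshz2, a teashirt zinc-finger factor gene, held 17 Wt25 windows over 439 kb, between 63.9 and 384 kb from its start, with a median of 3 CpGs and 1 window that was mostly repeat. The lincRNA gene Gm26883 overlaps it on the other strand, and its 10 windows are all among those 17. Meis2, a homeodomain factor gene, held 7 Wt25 windows and 1 AA10 window, and 7 Wt25 windows formed a group of 24.4 kb. Rbl1, which encodes the retinoblastoma relative p107, held 13 Wt25 windows, and its neighbours Mroh8 and Samhd1 held 9 and 6. Nfatc2, a calcium-regulated factor gene, held 4 Wt25 windows. AA10 windows were found in Mybl2, a cell-cycle factor gene, and in Tox2, an HMG-box factor gene, with 3 windows each and no Wt25 window. Over all list genes, 39 of 172 (22.7%) held Wt25 windows and 25 (14.5%) held AA10 windows, with the same 12.8% and 7.17% for comparison.

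At the Wt1 locus the antisense transcript held more windows than the gene. Wt1os held 24 Wt25 windows in 50.0 kb, 22 of them in introns and 2 in its exons, whereas Wt1 itself, which encodes a zinc-finger factor of kidney and gonad development, held 4 in 47.1 kb, between 29.4 and 46.8 kb from its start. Them7, which lies beyond Wt1, held 15 windows, of which 12 were in the dense run over its start. Wt1os, Wt1 and Them7 together held 43 distinct Wt25 windows and 0 AA10 windows. The lists carry no strand, so a window can be placed in overlapping genes but not assigned to one of them.

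Pax6, farther along the same stretch of the chromosome, held no window. The nearest Wt25 window lay 31.4 kb away inside Elp4, the neighbouring gene, and the nearest AA10 window lay 764 kb away. Dnmt3b, one of the de novo DNA methyltransferase genes, also held no window, with the nearest AA10 window at 34.5 kb and the nearest Wt25 window at 107 kb.

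Among 16 distal adhesion and axon guidance genes, 4 held Wt25 windows only, 3 AA10 windows only and 2 both. A Wt25 window thus lay in 37.5% and an AA10 window in 31.25%, against 12.8% and 7.17% of all distal protein-coding genes. Cdh4, which encodes R-cadherin, held 15 of the 20 Wt25 windows in this list, spread over 457 kb from 26.9 to 455 kb from its start, at 3.28 windows per 100 kb and with no window that was mostly repeat. The paper checked loci in Cdh4 by PCR after 5hmC-DIP and after digestion with MspI, and reports significant differences between Wt25 and AA10 there. Cdh22, another cadherin gene, held 1 Wt25 and 2 AA10 windows. Of 40 genes for ion channels, receptors and synaptic proteins, 7 held Wt25 windows only (17.5%) and 5 AA10 windows only (12.5%). Snap23, a SNARE gene of membrane fusion, held 5 Wt25 windows, and Trpm7, a channel-kinase gene, held 3. Of 32 genes of signalling, 5 held Wt25 windows only, 1 held AA10 windows only and 2 held both, so that 21.9% held a Wt25 window and 9.4% an AA10 window. Asip, which encodes the agouti signalling peptide, held 6 Wt25 windows, of which 5 also lie in the overlapping gene Raly. The growth factor gene Bmp7 held 4 and the kinase gene Src held 3 Wt25 windows, whereas Dok5, a docking protein gene, held 1 Wt25 and 3 AA10 windows.

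Imprinted genes and genes of chromatin were few. Of 8 distal imprinted genes, 5 held Wt25 windows and none held an AA10 window. These were Blcap with 6 Wt25 windows, Nnat with 4, H13 with 2, and Gnas and Nespas with 1 each. Nnat lies within Blcap and Nespas overlaps Gnas, so the 5 genes share windows and held 9 distinct ones. The most CpG-rich distal Wt25 window, with 22 CpGs, was in Nnat. Of 13 genes for chromatin and DNA methylation, 2 held Wt25 windows and 3 held AA10 windows. Phf20, a reader protein of a histone acetyltransferase complex, held 14 Wt25 windows, all intronic, and Phf21a held 1. Asxl1, a polycomb-related gene, and Adnp, a homeobox gene, held 2 AA10 windows each, and Dnttip1 held 1. The lists are small and were not matched to other genes in length. These counts are set beside the shares of 12.8% and 7.17% of all distal protein-coding genes without a test.

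No distal gene held more than 8 AA10 windows. Uqcc1, an assembly factor gene of respiratory complex III, held 8 AA10 windows in 83.4 kb, and Zmynd8, which encodes a chromatin reader, held 8 in 115 kb, with no Wt25 window in either. Ldlrad3, a gene of the LDL receptor family, held 6 AA10 windows and 1 Wt25 window. Prr5l, which encodes a partner of the mTORC2 kinase complex, and Zfyve19 held 4 each, and Rrbp1, a ribosome-binding protein gene of the endoplasmic reticulum, held 3. Per length, the short genes Zfyve19 (47.4 windows per 100 kb) and Eif6 (3 AA10 windows, 42.3 per 100 kb) were close to Chmp4b (46.4 Wt25 windows per 100 kb). Of the distal protein-coding genes, 10 held windows of both directions, 113 held Wt25 windows only and 59 held AA10 windows only.

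**Figure D2:**
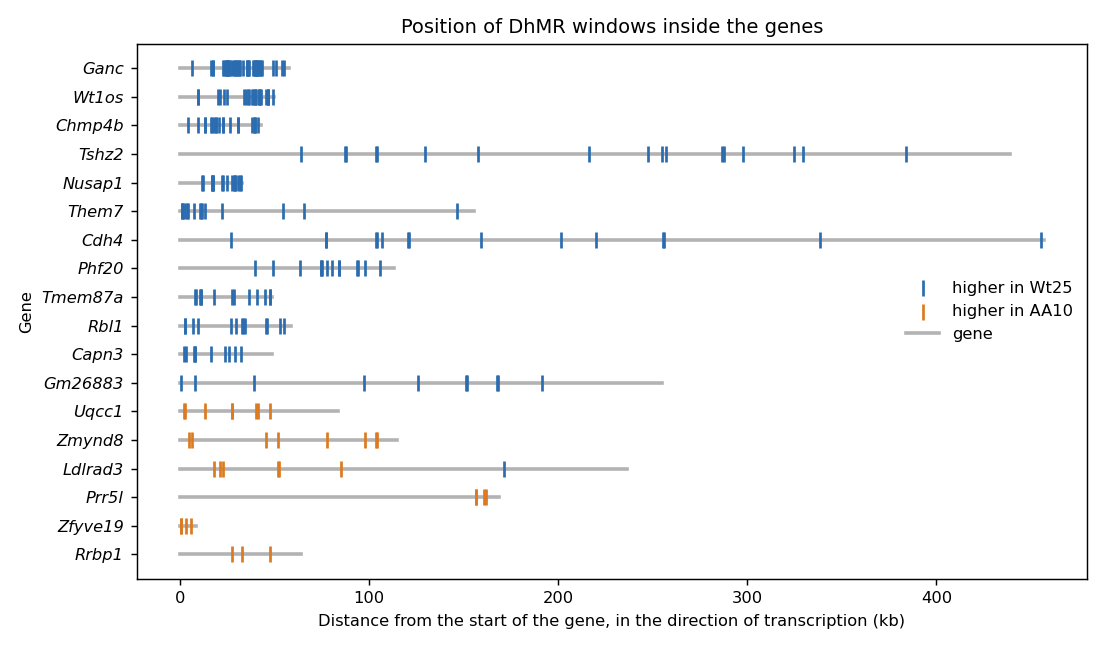
Windows inside the 12 genes with most Wt25 windows and the 6 genes with most AA10 windows, by distance in kb from the start of the gene in the direction of transcription. Grey lines show gene length and ticks show single windows. Ganc, Wt1os, Chmp4b and Nusap1 carry 16 to 45 windows packed into short genes, while the 17 windows of Tshz2 and the 15 of Cdh4 are scattered over 439 and 457 kb of gene.

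Few of the windows were in promoters, defined as 1 kb before to 100 bp after a RefSeq start, but promoters make up only 1.53% of the distal part. There were 15 Wt25 windows (2.09%, 1.27 to 3.42%) in 12 promoters and 8 AA10 windows (3.90%, 1.99 to 7.51%) in 6 promoters. The Wt25 promoters with 2 windows each were those of Bcl2l11 (4 and 11 CpGs), which encodes the pro-apoptotic protein Bim, of Mcts2 (5 and 20 CpGs) and of Ahcy (1 and 5 CpGs), the enzyme that clears S-adenosylhomocysteine, the by-product of methylation reactions. Accsl, Depdc7, Aven, Capn3, Chmp4b, Gm39918, Gm5535, Bcas1 and Prelid3b had 1 Wt25 window each. Some of these are at RefSeq starts inside the gene. The windows of Aven, Gm5535, Capn3 and Chmp4b lay 66.1, 17.9, 7.28 and 4.60 kb from the GENCODE start of the gene. AA10 promoter windows were found at Dnajc17 (4 and 10 CpGs) and Pdyn (3 and 6 CpGs), the opioid peptide precursor gene, with 2 each, and at Spint1, Ccm2l, Procr and Mir7003 with 1 each. The Dnajc17 promoter windows also lie inside the neighbouring gene Zfyve19 and make up 2 of its 4 windows. The Mir7003 window lies inside Mybl2. The Mcts2 promoter windows are the same as the 2 windows of H13.

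Introns held the largest number of windows in both directions. Of the distal Wt25 windows, 382 (53.3%) were intronic, 263 (36.7%) intergenic and 27 (3.77%) in coding exons. Of the distal AA10 windows, 105 (51.2%) were intronic, 85 (41.5%) intergenic and 3 (1.46%) in coding exons. Per Mb of the feature, distal introns held 10.2 Wt25 windows against 3.69 in proximal introns, a ratio of 2.75. Intergenic DNA held 5.56 against 2.66 (ratio 2.09) and coding exons held 18.7 against 10.9 (ratio 1.72). These densities count single windows and include the dense runs, which occurred only in the distal part. Of the 168 windows in runs 57.1% were intronic, against 52.1% of the other distal Wt25 windows. With windows joined within 10 kb, introns held 48.6% of distal and 47.3% of proximal Wt25 regions. Promoters held 10.8 Wt25 windows per Mb distally and 11.9 proximally, from 15 windows in each part, but the order turned with the definition. With 1 kb on each side of the start the values were 11.4 and 8.79 per Mb, and with GENCODE transcripts 9.08 and 8.44 per Mb. The 3′ UTRs held 10.8 against 3.84 windows per Mb, but from 11 and 3 windows. For AA10, introns held 2.79 against 2.40 windows per Mb and intergenic DNA 1.80 against 2.11, whereas promoters held 8 distal windows and 1 proximal window, or 13 and 7 with GENCODE transcripts.

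**Figure D3:**
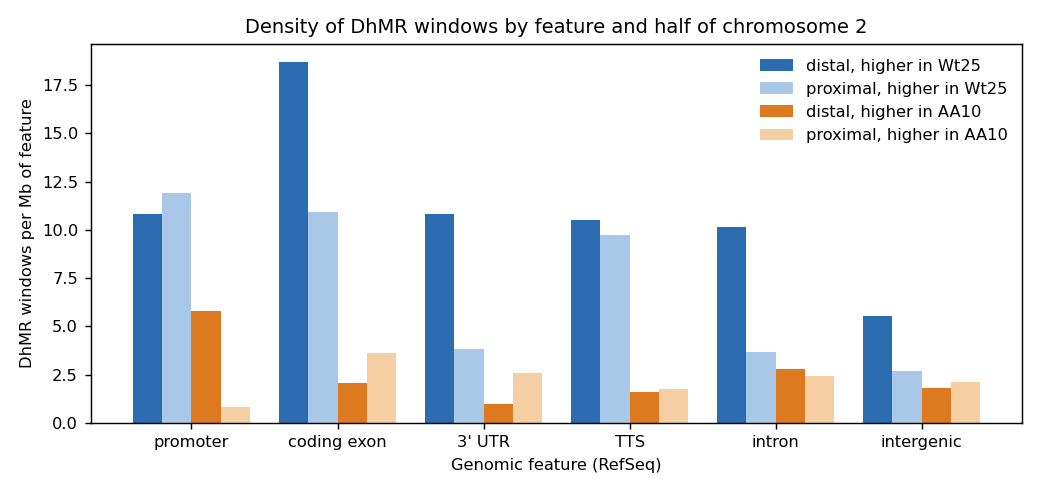
Single DhMR windows, those of dense runs included, per Mb of each RefSeq feature in the distal and proximal parts of chromosome 2, by direction. Wt25 windows are denser distally in introns (10.2 against 3.69 per Mb) and intergenic DNA (5.56 against 2.66 per Mb), while the 2 Wt25 promoter bars are close in height (10.8 and 11.9 per Mb), an order that turns with other promoter definitions.

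To ask where distal Wt25 regions differed in measures that did not choose them, the shares of joined regions in promoters, coding exons, introns and intergenic DNA, with at least 4 CpGs and with mostly repeat bases were compared. Each region was described by the window nearest its middle. A two-sided Fisher's exact test was used for each of 6 measures in 2 comparisons, with Benjamini-Hochberg adjustment over the 12 tests. None of the 12 passed an adjusted p of 0.05. Against proximal Wt25 regions, 3 measures had an unadjusted p under 0.05 by the exact test, and against distal AA10 regions 0 did.

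Promoters held 11 of 517 distal (2.13%) and 15 of 277 proximal (5.42%) Wt25 regions, a difference that did not pass the correction (odds ratio 0.38, Fisher's exact p = 0.0197, adjusted p = 0.175). At least 4 CpGs were found in 32.5% (28.6 to 36.6%) of distal and 40.4% (34.8 to 46.3%) of proximal Wt25 regions (odds ratio 0.71, Fisher's exact p = 0.0291, adjusted p = 0.175). Mostly repeat sequence made up 19.3% of distal and 25.6% of proximal regions (odds ratio 0.70, exact adjusted p = 0.185), and intron 53.8% and 46.9% (odds ratio 1.32, exact adjusted p = 0.221). When single windows were counted in place of joined regions, the CpG difference passed the threshold, at 30.1% against 40.6% with at least 4 CpGs (odds ratio 0.63, Fisher's exact adjusted p = 0.0173), but windows of one run are not independent of each other.

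Between distal Wt25 and AA10 regions no measure differed past the threshold, before or after adjustment. Introns held 53.8% of Wt25 and 52.5% of AA10 regions (odds ratio 1.05, exact adjusted p = 0.796), and intergenic DNA held 36.0% and 40.4% (odds ratio 0.83, exact adjusted p = 0.544). At least 4 CpGs were found in 32.5% and 36.6% (odds ratio 0.83, exact adjusted p = 0.544). Promoters held 11 of 517 Wt25 and 6 of 183 AA10 regions (odds ratio 0.64, exact adjusted p = 0.607), and coding exons held 17 and 3 (odds ratio 2.04, exact adjusted p = 0.544). The small numbers of promoter and exon regions leave wide intervals, from 1.19 to 3.77% for Wt25 promoters and from 1.51 to 6.97% for AA10 promoters.

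Windows of the dense runs were poorer in CpGs than the other distal Wt25 windows, as a description. The 168 windows in runs held 2.24 ± 1.41 CpGs (SD), and 15.5% had at least 4. The 549 Wt25 windows outside runs held 3.22 ± 2.60 CpGs, and 34.6% had at least 4, close to the 205 distal AA10 windows with 3.30 ± 2.33 CpGs and 37.1%. The 308 proximal Wt25 windows held 3.50 ± 2.63 CpGs. All 200 bp bins of distal chromosome 2 held 1.76 ± 2.27 CpGs, and 13.2% of them had at least 4. Mostly repeat windows made up 31.5% of those in runs, 18.6% of those outside runs, 21.0% of AA10 windows and 24.3% of all bins. GC content was 44.4% in runs, 47.4% outside runs and 43.0% over all bins. At least 1 CpG was present in all but 4 of the 717 Wt25 windows and all but 1 of the 205 AA10 windows, whereas 128928 of the 451783 distal bins held none.

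**Figure D4:**
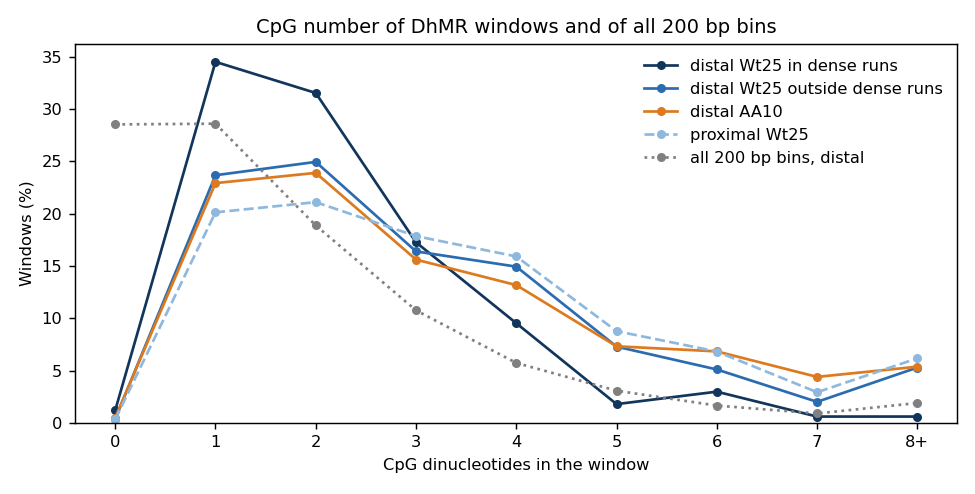
Number of CpGs per window, as the percentage of windows in each set. The curve of distal Wt25 windows in dense runs peaks at 1 CpG (34.5%), those of distal Wt25 windows outside runs and of distal AA10 windows run close together, and among all 200 bp bins 28.5% hold no CpG.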

How the data were processed

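5hmC-DIP was performed on 3 libraries of the Wt25 line and 3 of the AA10 line. The authors aligned reads to GRCm38 with STAR, removed duplicates with Picard and compared the lines in bins of 200 bp with MEDIPS. Their methods call a bin by a minimal read count, a fold change and a P-value cut-off. They name no correction for multiple testing for these calls. How many listed windows would pass such a correction is unknown. The authors then removed bins in IgG-DIP peaks or simple repeats, and annotated bins with HOMER (versions are not given in the sources used here). The deposited lists hold, for each direction, a chromosome, a start, an end and a gene ID as their values, pooled over the replicates. Neither counts of reads nor the sizes and P-values of the differences are in them, so the depth behind each window is unknown, and neither a stricter threshold nor a fit over libraries could be made. Pooled calling also means that a difference carried by 1 library cannot be seen in the lists. The paper reports high correlation between replicates of the same line across the filtered DhMRs as a set. It also gives read totals for each library. Neither shows the replicate values of a single window here.

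From these lists, windows were taken by start position and direction. Repeats are the lower-case bases of GRCm38.p6, and mostly repeat means at least 50% of the bases. Features were read at the window midpoint from 3972 curated RefSeq transcripts of chromosome 2, and genes from GENCODE vM21 basic. The gene symbols are those of GENCODE, which lists Asip as a. Named genes were the 12 with most Wt25 and the 6 with most AA10 windows, genes of 7 lists with at least 3 windows or a promoter window, genes with 2 promoter windows, the genes of the 6 and 3 segments with the largest excess in either direction, and Pax6, Dnmt3b and Cdh4. Further genes are named as examples of small counts, after their values were seen. The members and lists were chosen with earlier results of these data known. Shares have 95% Wilson intervals. Fisher's exact tests used regions joined within 1 kb. The functions were tested on simulated data. Tests were run in scipy 1.17.1 and tables were handled in pandas 2.3.3 under Python 3.11.15.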

Additional observations from a re-analysis of the deposited data

How the results depend on the processing

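The Wt25 share of distal windows, 77.8% as single windows, was 73.9% with windows joined within 1 kb, 68.2% with windows joined within 10 kb, 72.8% without the dense runs and 66.2% without the 6 segments of largest Wt25 excess, an alternative added after seeing the data. It stayed above the proximal share in each of these. In each it also fell outside the 95% interval of the single-window share, an interval that takes neighbouring windows as independent. Direction and position chose the windows, so these shares are a description and not a test. Among these alternatives the proximal share fell outside its interval only without its own 6 richest segments, to 51.3%. With the left-out interval kept the distal share was 80.2%, and with the boundary 10 Mb earlier or later it was 77.1% and 77.3%. Of the distal segments with windows, 69.2% of 1 Mb segments and 89.5% of 5 Mb segments held more Wt25 than AA10 windows. Longer segments hold more windows each. The tests of distal against proximal Wt25 regions gave 1 result past the threshold with single windows and 0 otherwise, also with GENCODE transcripts, a wider promoter and regions joined within 10 kb. Those of Wt25 against AA10 regions gave 0 under every alternative run. By the deposited gene column, which names a gene for windows outside genes too, 57 list genes had a Wt25 window in place of 39. For AA10 windows the number was 33 in place of 25. The share of all distal genes by that column was not computed, so these larger numbers have no background to be read against. No paired analysis was possible because the lists pool the libraries, and for the same reason no replicate could be left out.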
